A study of Drosophila melanogaster with 12 samples.

Results

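The genome-wide occupancy of Nerfin-1 in the central nervous system of Drosophila melanogaster larvae is described here from a list of 3649 distinct intervals called by targeted DamID. The members were chosen as all distinct chromosome, start and end combinations in the authors' Nerfin-1 list. They are 3649 of the 39143 intervals in the Nerfin-1 and open-chromatin lists together. The list names 4353 FlyBase gene identifiers.

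The DamID animals were wandering larvae of the third instar with the genotype w; tubGal80TS/+; GMR31H08-Gal4, UAS-GFP, with pUAST-LT3-Dam alone or pUAST-LT3-Dam-Nerfin-1 inserted at attP2 (2 samples each). Both groups thus carried the same driver, the same temperature-sensitive Gal80 repressor and a Dam transgene. Eggs laid at 25°C were held at 18°C for 4 days, and the transgene was induced at 29°C for 24 hours before the nervous systems were dissected. Methylation therefore marks cells in which GMR31H08-Gal4 was active, within whole dissected tissue. Open chromatin and RNA (3 samples each) came from a different population, GFP-positive cells sorted from the nervous systems of animals reared at 25°C with the iA insertion of the reporter P[nerfin-1.GFP-NLS.SV-40]. RNA from sorts of several days was pooled into 3 samples of 180 to 330 ng, so their spread is a spread between pools.

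Nerfin-1, the fly relative of mammalian INSM1, binds DNA through zinc fingers and is known for keeping young neurons from returning to a stem-cell state. Neural stem cells of the fly, the neuroblasts, divide to renew themselves and to give daughters that mature into neurons and glia. In targeted DamID, a bacterial adenine methylase fused to the protein methylates GATC sites near the places the protein visits. The boundaries of a called interval, a peak, follow those sites, so a long peak is a stretch of marked fragments and does not give the number of binding events within it. The list gives positions and gene identifiers with no score and no value per replicate, so each peak is a single pooled call without a replicate check.

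Neuronal markers were listed in the RNA of the sorted cells. All 5 neuronal markers (elav, nSyb, brp, fne and Syt1) were listed in the authors' RNA table, with a summed level of 6312 to 6642 CPM (counts scaled to 1000000 listed counts per library) over the 3 libraries, called S1, S2 and S3. Of 5 neuroblast markers 1 was listed (ase), at 31.6 to 58.2 CPM, and of 4 glial markers 1 was listed (gcm), at 22.1 to 41.9 CPM. None of the 3 hemocyte, 4 muscle and 3 fat body markers was listed. In the longer gene lists of these tissues, some further members were listed, among them the glial genes Eaat2 (244 to 325 CPM) and nrv2 (122 to 135 CPM), Pxn (112 to 143 CPM) and Col4a1 (94.6 to 103 CPM) of the hemocyte list, and Tm1 (555 to 572 CPM) of the muscle list. The part of such RNA in the results was not tested. In these bulk samples, fewer cells of a type and less RNA per cell cannot be told apart. The DamID population has no RNA of its own here, and its identity could not be checked against markers.

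Nerfin-1 peaks were of moderate length with a long tail. The median was 1146 bp (95% interval 1117 to 1171), the quartiles were 767 and 1821 bp, and the extremes were 124 and 13727 bp. The peaks covered 5451 kb in all. Peaks of at least 1 kb made up 59.4% of the list and 81.8% of the covered bases, and the 67 peaks of at least 5 kb made up 8.41% of the covered bases. Neighbouring peaks were mostly far apart, with a median gap of 16846 bp, but 155 gaps were under 1 kb and 55 were under 300 bp.

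Longer peaks met open chromatin more often. Of the 349 peaks of up to 500 bp, 55.9% overlapped at least 1 ATAC interval (95% Wilson interval 50.6 to 61.0), against 74.5% of those over 1 and up to 1.5 kb, 92.2% of those over 2 and up to 3 kb and 67 of 67 above 5 kb. The number of ATAC intervals per kb of peak ran the other way, from 1.52 in the shortest class to 0.46 in the longest. The share that length alone would give was not tested. The 1531 peaks that lay over an end of a protein-coding gene were also longer, with a median of 1366 bp, and 88.0% of them overlapped an ATAC interval (86.3 to 89.5). The 1459 peaks inside a gene and over no gene end had a median of 1005 bp, and 65.0% overlapped one (62.5 to 67.4). The 659 peaks outside protein-coding genes were close to the latter, with a median of 1020 bp and 65.1% (61.4 to 68.6).

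**Figure D1:**
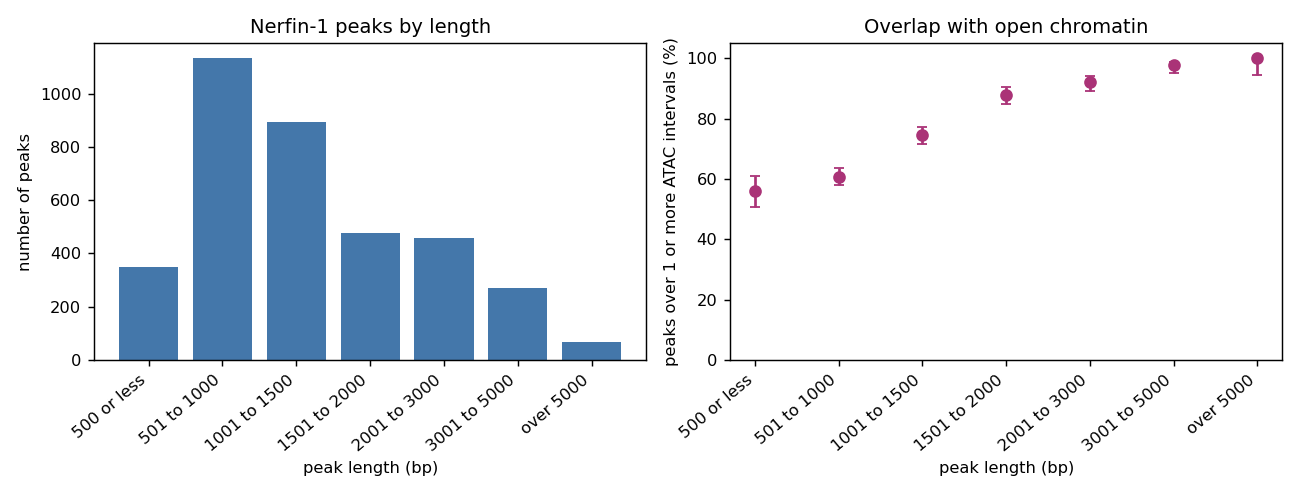
Number of Nerfin-1 peaks in each length class (left, bars) and percentage of the peaks of each class that overlap at least 1 ATAC interval by at least 1 bp (right, points with 95% Wilson intervals). The class over 0.5 and up to 1 kb is the largest with 1133 peaks, and the overlapping share goes from 55.9% in the shortest class to all 67 peaks in the longest.

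The peaks were spread over all chromosome arms at similar density, from 24.8 per Mb on X to 29.9 per Mb on the small chromosome 4. The arms also resembled each other in the share of protein-coding genes assigned a peak, which was 24.5% on 2L, 24.8% on 2R, 26.2% on 3L and 3R and 27.3% on X. Chromosome 4 stood higher, with 32 of its 79 genes assigned a peak (40.5%), although its peaks were the shortest, with a median of 971.5 bp. These 79 genes lay over 1.27 Mb, against 2600 over 23.4 Mb on 2L. The part of gene density and gene span in the share on chromosome 4 was not tested. The mitochondrial genome held 1 peak of 4553 bp without a gene identifier, and Y held 1 of 688 bp.

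The authors' identifiers gave nearly every gene a single peak. Of the 4353 identifiers, 4267 (98.0%) were paired with 1 peak, 79 with 2, 5 with 3 and 2 with 4. In the other direction, 2961 peaks carried 1 identifier, 606 carried 2, 65 carried 3 and 16 carried 4 or more. The most was 10, on a peak of 1136 bp on 3R among the overlapping transcript segments of mod(mdg4), a chromatin insulator gene that is assembled by trans-splicing. Among protein-coding genes, 3521 of 13624 that could be looked up were assigned a peak (25.8%).

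Counting peaks by position gave a similar number of genes but more peaks on each. With a gene's span taken from its lowest to its highest annotated coordinate on dm6, 3550 of 13922 protein-coding genes overlapped a peak (25.5%). By assignment 77 protein-coding genes had 2 or more peaks, whereas by position 440 did, and of the overlapping peak and gene pairs 72.9% were also paired in the authors' list. By position 3110 genes held 1 peak, 355 held 2, 55 held 3, 19 held 4 and 11 held 5 or more. Most assigned pairs lay at the gene itself: of 4336 pairs with a known span, 3423 overlapped it, 347 lay within 1 kb, 565 lay 1 to 5 kb away and 1 lay 6253 bp away.

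Longer genes were bound more often. The median span was 4015 bp for assigned genes and 1862 bp for the others. In 10 classes of about equal gene number, the share assigned a peak was 11.5% in the shortest class (168 to 724 bp) and 51.7% in the longest (14341 bp and above). For this reason each gene list below is set beside the share that all protein-coding genes of the same span classes reached, called the length standard.

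**Figure D2:**
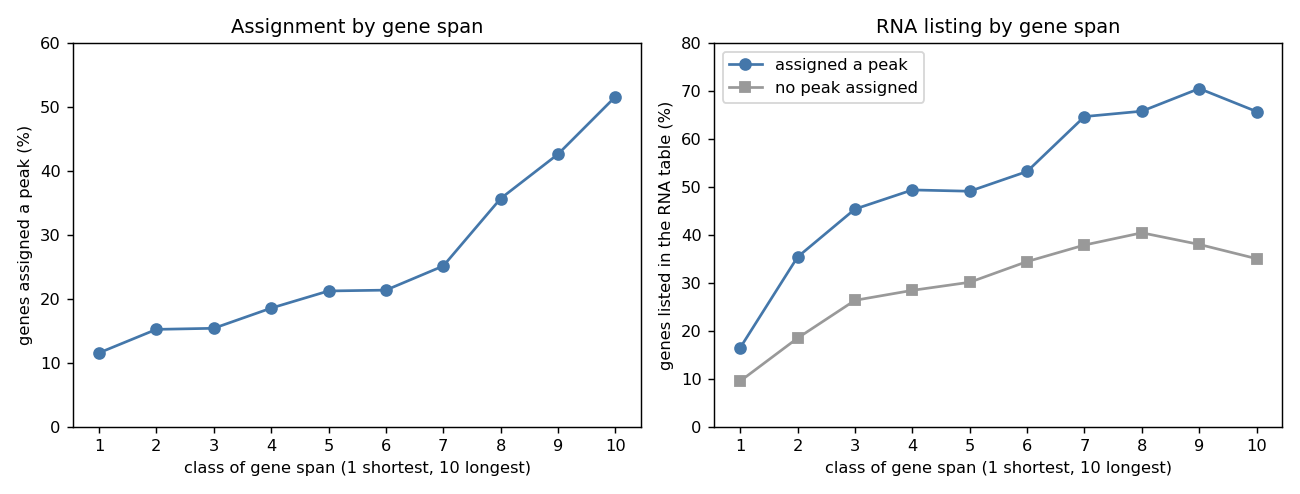
Percentage of protein-coding genes assigned a Nerfin-1 peak (left) and percentage listed in the RNA table among genes with and without an assigned peak (right), over 10 classes of gene span from shortest to longest. Assignment runs from 11.5% to 51.7%, and in each of the 10 classes the assigned genes are listed more often than the others.

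The longest peaks lay at genes of several kinds, among them zinc-finger factors, polarity scaffolds and chromatin regulators. The longest peak, 13727 bp at 2R:18303858-18317584, lay inside sbb (scribbler), which encodes a nuclear protein, and was assigned to the small genes CG14505 and Tango8 that lie within it. The next was 10772 bp at X:4685741-4696512 over ctp, the dynein light chain. A peak of 10011 bp at 2L:1963706-1973716 covered the end of erm (earmuff), a zinc-finger factor that holds intermediate neural progenitors to their fate. Peaks of 9978 and 9484 bp lay on 3R in scrib, a scaffold of cell polarity, and in gukh, which encodes a partner of Scribble. The remaining peaks among the longest 10 lay over Sin3A, the scaffold of a histone deacetylase complex, and its neighbour Amph (9282 bp), at CG10195 (9157 bp), in Bicra (8483 bp), over lola, a BTB zinc-finger factor of axon growth (8403 bp), and in Ank2, a neuronal ankyrin (8148 bp). Each of these 10 peaks overlapped between 2 and 6 ATAC intervals.

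By summed length of assigned peaks, brat led the genes that had more than 1 peak. Brat is a translational repressor that is handed to the differentiating daughter of a dividing neuroblast. Its 3 assigned peaks of 2432, 5742 and 3887 bp summed to 12061 bp, and the latter pair, in the middle of the gene, was separated by under 300 bp. Its RNA was 4552, 4422 and 3817 CPM in S1, S2 and S3. Myc, the growth-promoting bHLH factor, followed with 11390 bp in 2 peaks of 4333 and 7057 bp, and was not listed in the RNA table. Next was FBgn0005630, an identifier that matched no symbol, with 11297 bp in 2 peaks, of which the longer is the peak of 8403 bp over lola. At erm, the long peak and 1 of 1101 bp summed to 11112 bp, and its RNA was 182, 145 and 141 CPM. Kr-h1, a zinc-finger factor of the juvenile hormone response, had 3 peaks of 2223, 5800 and 270 bp, and its RNA was 114, 103 and 87.3 CPM. Long marking was thus found at genes with high and with low read numbers and at genes that were not listed.

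Ranking by bases inside the gene span brought up other genes, because the identifiers leave out many peaks in long genes. The first was osa, the ARID subunit of the Brahma chromatin remodelling complex, where 4 peaks covered 16441 of 30533 bp (53.8%), though 1 was assigned. Its RNA was 1301, 1322 and 1207 CPM. CenG1A, a GTPase-activating protein for Arf, followed with 16147 bp in 5 peaks, and sbb with 15999 bp in 4. Ten-m, a teneurin that matches synaptic partners, had 5 peaks of 1193 to 6656 bp over 14184 bp of its span and none assigned to it. The RNA-binding proteins Musashi (msi, 11997 bp) and Syncrip (Syp, 11182 bp) each had 4 peaks. Raf, the kinase below Ras, also had 4 (11159 bp), of which 1 was assigned. Among protein-coding genes, the most peaks over 1 span was 6, reached by jing, svp, Bx, ND-15 and kirre. Of these svp, the COUP-TF orphan receptor that switches neuroblast temporal identity, had peaks of 662 to 1876 bp spread through its span and another, of 495 bp, at 272 bp outside it.

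**Figure D3:**
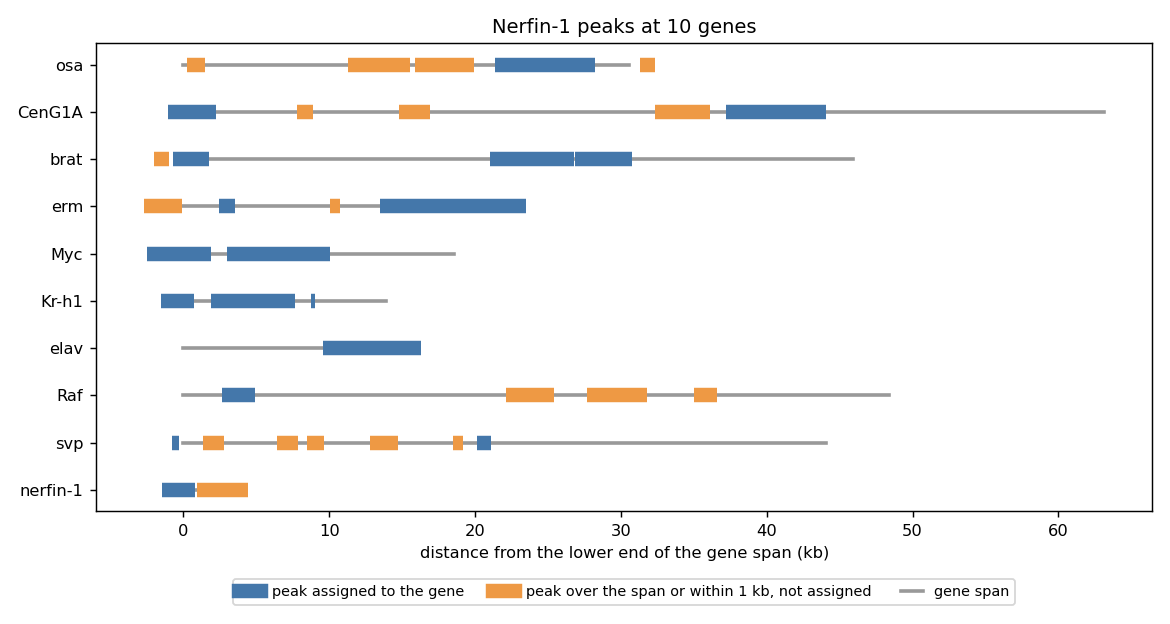
Nerfin-1 peaks (thick bars) along the spans of 10 genes (grey lines), in kb from the lower coordinate of each span, coloured by whether the authors' list pairs the peak with that gene. The 4 peaks in osa cover 53.8% of its span, the 3 assigned peaks of brat sum to 12061 bp, and most peaks in Raf and svp are not paired with them.

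The nerfin-1 gene itself was almost fully marked. Peaks of 2282 and 3484 bp covered 96.1% of its 3208 bp span at 3L:909112-912319, and the first was assigned to it. The Dam-Nerfin-1 transgene carries nerfin-1 coding sequence, and reads from the transgene and from the locus cannot be told apart in this list. Its RNA was 2486, 1952 and 1773 CPM. At sd, which encodes the TEAD-family factor Scalloped, an assigned peak of 3380 bp and another of 1338 bp lay inside the span, and RNA was 377, 416 and 385 CPM.

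The neuroblast list had a peak at each member that could be looked up. All 10 were assigned one (100% beside a length standard of 37.3%), in 51 lists of which 30 stood above their length standard and 21 below. They comprise the self-renewal factors dpn (Hes-type bHLH, 1209 bp), klu (zinc finger, 4033 bp), wor (Snail family, 653 bp), ase (proneural bHLH, 1836 bp) and tll (orphan nuclear receptor, 1724 bp). They also comprise grh (2 peaks, 1738 bp in all), the spindle and polarity adaptor insc (3033 bp), the cargo adaptor mira (359 bp), and the fate determinants pros and brat. Not all of these peaks touch the gene: those of ase, wor and tll lay 2692, 1027 and 1398 bp from the span. The peak of dpn reached 2 bp into its span, and that of klu 463 bp. By overlap with the span, 7 of 11 members counted (length standard 40.6%). RNA was listed for 3 of the 10. The homeodomain factor Prospero (pros), which ends self-renewal in the daughter cell, had peaks of 143 and 4239 bp assigned and 10826, 12384 and 10038 CPM, and ase had 31.6, 58.2 and 52.6 CPM. The other 7 neuroblast factors with a peak were not listed in the sorted cells.

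Targets and components of Notch signalling also stood above their length standards by assignment. Notch signalling between sister cells acts through the factor Su(H), which switches on the E(spl) genes, Hes-type repressors and their small Bearded-family neighbours. In the E(spl) complex 8 of 11 genes were assigned a peak (72.7%, length standard 14.9%). The assigned peaks were 8 separate intervals between 992 and 2878 bp, among them 2878 bp at E(spl)m8-HLH, 2791 bp at E(spl)m7-HLH and 1600 bp at E(spl)m2-BFM. E(spl)m3-HLH, E(spl)m4-BFM and E(spl)m6-BFM had none assigned, although a peak lay 257 bp from E(spl)m6-BFM. By overlap with the span 7 of 11 counted. The peak of E(spl)m5-HLH lay 605 bp from its span, and that of E(spl)m7-HLH reached 57 bp into its own. RNA was listed for 5 of the 11 genes, with 12.8, 17.0 and 14.7 CPM in S1, S2 and S3 for E(spl)mbeta-HLH. Of the Notch pathway 11 of 16 genes had a peak (68.8%, length standard 39.8%). These were the receptor N (978 bp), the ligand Ser (2562 bp), Su(H) (2768 bp), its coactivator mam (2011 bp), the ligand-activating ubiquitin ligases neur (2 peaks, 5092 bp) and mib1 (641 bp), the antagonist numb, the corepressor H, and kuz, aph-1 and spdo. The protease subunits Nct and pen-2 and the genes fng, sno and Nak had none assigned. By overlap with the span 12 members of the Notch list counted, among them fng, which held a peak of 940 bp. The assigned peak of spdo did not touch its span.

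Transcription factors as a whole were assigned peaks more often than genes of their length, but this held less well by position. Over 8 lists, 102 of 182 factors were assigned a peak (56.0%, 95% Wilson interval 48.8 to 63.1, length standard 40.2%). By overlap with the span 87 of 188 counted (46.3%, length standard 43.4%). The zinc-finger list reached 26 of 38 (68.4% beside 44.2%), with ttk (1761 bp), chinmo (646 bp), fru (1480 bp), dati (1426 bp), jim (1622 bp) and ken (1222 bp) among them, and nerfin-2, ab, hb and Kr without. Of the bHLH factors 13 of 24 were assigned one (54.2% beside 28.4%). The longest was 7410 bp at Oli, a factor of motor neurons. Of the proneural genes, ac, sc, ato, amos and cato had none, while l(1)sc (1039 bp) and ase (1836 bp) had one outside the span. Another member of the list, tap, had one of 481 bp. Forkhead factors reached 8 of 12 (66.7% beside 34.2%), with 7692 bp at jumu, 3805 bp at FoxK and 2329 bp at slp2, but 5 of 12 by overlap with the span (standard 35.5%). In the Hox list, by contrast, 2 of 8 had a peak (25.0% beside 50.5%), of 766 bp at Dfd and 856 bp at Ubx, and lab, pb, Scr, Antp, abd-A and Abd-B had none.

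Within the factors, peaks went with RNA. Of the 74 factors with listed RNA, 54 were assigned a peak (73.0%, beside 56.0% of listed genes of the same span classes), and of the 108 without, 48 were (44.4%). Over all protein-coding genes the corresponding shares were 41.1% and 17.2%. Among bHLH factors all 8 that were listed were assigned a peak (ase, tap, emc, Hey, Oli, Fer1, Fer2 and sim), while 11 of the other 16 were not. The peaks of ase, emc and Fer1 did not touch the gene and lay 2692, 1503 and 1554 bp from the span. These shares are descriptions without a test.

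Signalling pathways other than Notch were mixed. Over 7 pathway lists 59 of 117 genes had a peak (50.4%, 41.5 to 59.3, length standard 39.8%), and by position 64 of 123 (52.0% beside 42.6%). Among their 68 members with listed RNA, 41 had a peak (60.3% beside 54.5% of listed genes of the same span classes). The BMP and activin list had 11 of 19 (57.9% beside 37.5%), with the receptors tkv (2 peaks), sax, put and babo, the signal transducers Mad and Smox and the target brk (3016 bp). Of the ligands, mav (825 bp) and myo (767 bp) had a peak, and gbb, scw and daw had none. In the Wnt list 14 of 24 were assigned one (58.3% beside 42.4%), among them the receptors fz, fz2 and fz3, the Wnt5 receptor drl (2304 bp) and arm, the fly beta-catenin (3980 bp). Of the ligands, Wnt4 (2760 bp) and Wnt10 (1182 bp) had a peak, the latter 3697 bp from the span, and Wnt5 and Wnt6 had none. In the Hippo list 8 of 15 were assigned a peak (53.3% beside 36.9%), including the coactivator yki (2087 bp), the kinase wts (3092 bp) and kibra (3549 bp). None was assigned to hpo, sav, Mer and ft, although peaks lay 483 and 549 bp from hpo, 328 bp from Mer and 429 bp from ft. With 1 kb added to the span 13 members of the Hippo list counted. The EGF receptor list stood below its standard by assignment, with 7 of 19 (36.8% beside 42.1%). By overlap with the span 9 members counted, among them drk and Dsor1, which were assigned none. The members assigned a peak were Egfr (1029 bp), the ligand spi (6163 bp), S (1010 bp), aos (990 bp), kek1 (2529 bp), Raf (2215 bp) and pnt (2169 bp). Sos, Ras85D and rl had none by either count.

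Regulators of chromatin and RNA carried more assigned sequence per gene than protein-coding genes in general. Over both lists 28 of 49 genes had a peak (57.1%, length standard 42.3%). The median summed length of assigned peaks was 2217.5 bp per gene, against 1206 bp over all assigned protein-coding genes. These sums add up several peaks at some genes, such as brat and Syp, and are not lengths of single peaks. The median span of the members was also long, at 12162 bp. Among the 43 with listed RNA, 25 had a peak (58.1%), near the 56.5% of listed genes of the same span classes. Among RNA-binding regulators 12 of 18 were assigned a peak (66.7% beside 48.5%). The pan-neuronal splicing factor elav had a peak of 6681 bp and 1748, 1786 and 1685 CPM, and its relative fne had 434 bp and 2200, 2547 and 2478 CPM. The Polycomb and trithorax list had 16 of 31 (51.6% beside 38.7%). It included the Polycomb repressor subunits ph-d (2716 bp), Psc (2846 bp) and Su(z)2 (2242 bp), the remodeller subunits osa (6866 bp) and mor (2459 bp), and kis (4934 bp). Pc, Sce, E(z), esc and Su(z)12 had none.

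Genes of axon guidance and of synaptic recognition fell on opposite sides of the length standard. Axon guidance genes had a peak in 16 of 21 cases (76.2%, 54.9 to 89.4, length standard 49.1%). By position the count was 16 of 22 (72.7% beside 54.6%). The assigned members included the Slit receptors robo1 (1928 bp), robo2 (1152 bp) and robo3 (855 bp), the ligands NetA (2426 bp) and NetB (2820 bp), the Netrin receptor fra (1425 bp) and Dscam1 (4402 bp). The assigned peaks of robo3, unc-5 and Nrt did not touch the gene spans. The ligand gene sli had none assigned, although peaks of 1056, 2436 and 1149 bp lay inside it. Abl and trio had none by either count. The dpr, DIP, beat and side genes encode immunoglobulin proteins of the cell surface that pair in particular combinations between neurons. Of 54 such genes 13 had a peak (24.1%, 14.6 to 36.9, length standard 48.7%), and by position 18 of 54 (33.3% beside 54.4%). The members with one included dpr2 (3601 bp), dpr12 (1955 bp), DIP-delta (1540 bp), DIP-alpha (1545 bp), side-VII (2957 bp) and beat-IIa (3890 bp). Among them, 6 of 26 members with listed RNA had a peak (23.1%, beside 63.0% of listed genes of the same span classes), and 7 of 28 without listed RNA did. Of the 20 guidance genes with listed RNA, 15 had one (75% beside 64.1%).

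Lists of mature neuronal function differed among themselves. In the neuropeptide list 2 of 25 had a peak (8%, length standard 28.1%), Dh44 (1932 bp) and Nplp1 (708 bp), whereas Pdf, sNPF, NPF, Dh31, AstA and AstC had none assigned. The peak of Nplp1 lay 2790 bp from its span, and Dh31 held a peak of 2170 bp that is not paired with it. Of the list 1 gene, Nplp1, had listed RNA. Among sodium, potassium and calcium channels 6 of 20 were assigned a peak (30.0% beside 47.2%), but by position 10 of 21 held one (47.6% beside 52.3%). They included the potassium channel sei (5029 bp) and the calcium channel cac (4606 bp). Shal, eag and slo had none by either count, and Sh had a peak of 582 bp inside its span that is not paired with it. Nicotinic receptors lay near their standard, with 4 of 10 (40% beside 44.5%). Genes of the synaptic vesicle and active zone had 12 of 23 (52.2% beside 43.8%). Among these were nSyb (393 bp), Syx1A (3035 bp), Snap25 (1080 bp), Syt14 (2342 bp), brp (1408 bp) and Rbp (1602 bp). The peaks of Snap25 and brp lay 3634 and 1083 bp from the span. Genes that make or load neurotransmitters had 6 of 12 by assignment (50% beside 41.3%). They included ChAT (1999 bp), Gad1 (1408 bp), VGAT (537 bp) and VGlut (2042 bp), with ple, Ddc and DAT among those without. The peaks of VGAT and VGlut lay 628 and 6253 bp from the span. By overlap with the span 5 members counted, among them VAChT, which could not be looked up by assignment. In the glial list 8 of 12 had a peak (66.7% beside 36.5%), including the master regulators repo (1773 bp) and gcm (1567 bp), and by position 6 of 12 (standard 38.3%). RNA was listed for 3 of these 12.

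**Figure D4:**
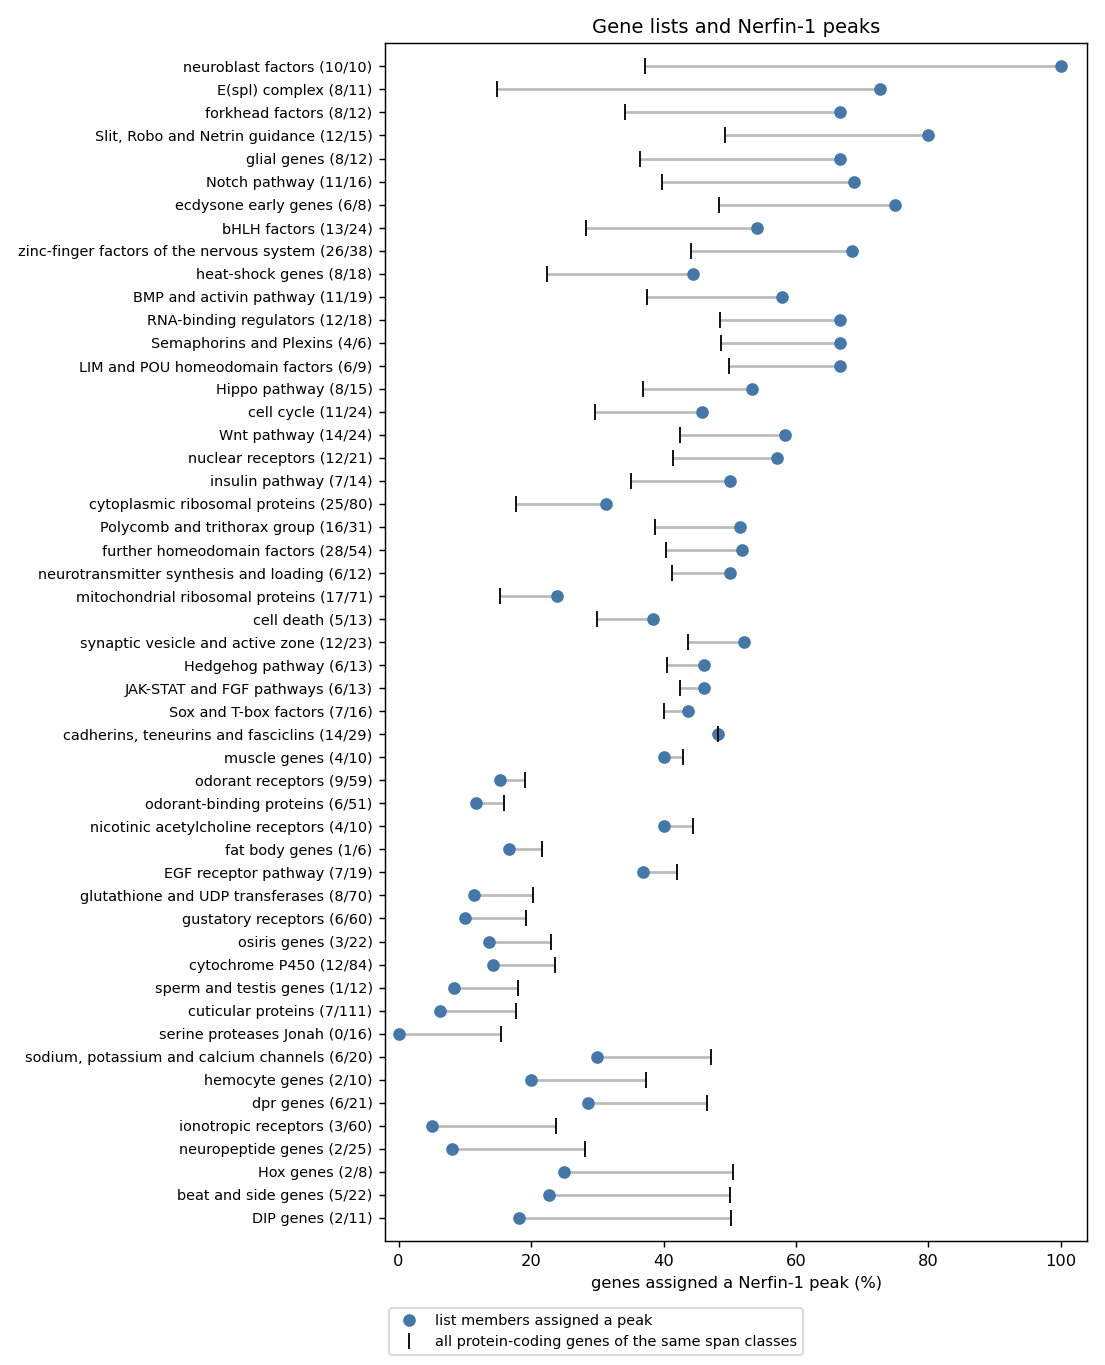
Percentage of the members of each of 51 gene lists that were assigned a Nerfin-1 peak (points) and percentage among all protein-coding genes of the same span classes (vertical ticks), with the numbers of assigned and looked-up members in parentheses. Neuroblast factors (10 of 10) and the E(spl) complex (8 of 11) lie farthest above the ticks, and the DIP, beat and side genes farthest below.

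Ribosomal protein genes, which are short, had peaks more often than all genes of their length but about as often as those with listed RNA. Over the cytoplasmic and mitochondrial lists 42 of 151 had a peak (27.8%, 21.3 to 35.4, length standard 16.6%), each at a separate peak. Examples are RpL40 (1166 bp), RpS13 (925 bp), RpL9 (1436 bp) and RpL30 (1798 bp), while RpLP1, RpS21, RpL37A and RpS2 had none assigned. Among the 144 with listed RNA the share was 26.4%, beside 25.8% of listed genes of the same span classes. Large families of sensory and cuticle genes, most of whose members had no listed RNA, had few peaks. Chemosensory receptors and odorant-binding proteins had one in 24 of 230 cases (10.4%, length standard 19.6%). Cuticle, detoxification and protease genes had one in 30 of 303 (9.90%, length standard 20.2%), including 7 of 111 cuticular protein genes and none of 16 Jonah proteases. In the muscle list 4 of 10 had a peak (40% beside 43.0%), and in the hemocyte list 2 of 10 (20% beside 37.3%). Heat-shock genes had a peak in 8 of 18 cases (44.4% beside 22.4%), among them Hsp83 (1466 bp), Hsp26 (3839 bp), Hsp27 (1716 bp) and Hsp70Ab (994 bp). The Hsp70 genes are near-identical copies, and reads could be split among them.

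Genes that do not encode protein were assigned peaks too. Long noncoding RNA genes had a peak in 472 of 1802 cases (26.2%, 24.2 to 28.3), near the 25.8% of protein-coding genes. By overlap 286 counted (15.9%, beside 25.3% of protein-coding genes), since many were assigned a peak beside them. No length standard was made for these types, whose median spans were 657 bp (long noncoding RNA) and 95 bp (microRNA) against 2144.5 bp (protein-coding). Of 235 microRNA genes 48 were assigned one (20.4%, 15.77 to 26.04, beside 25.8%), at 36 separate peaks, and 32 of them were overlapped by a peak. A peak of 3017 bp at 2R:20582778-20585794 covered 7 of them, mir-310, mir-311, mir-312, mir-313, mir-2498, mir-991 and mir-992. The pair mir-275 and mir-305 lay in a peak of 4888 bp on 2L, and mir-184 in 1 of 7712 bp at 2R:13328893-13336604, outside any protein-coding gene. A peak of 2411 bp held mir-2a-1, mir-2a-2 and mir-2b-2, and lay inside spi. None of 98 ribosomal RNA genes was assigned a peak.

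Genes with a Nerfin-1 peak were more often listed in the RNA table of the sorted cells. Of 13624 protein-coding genes 4938 were listed (36.2%). Among those with an assigned peak 2031 of 3521 were listed (57.7%, 56.0 to 59.3), and among the others 2907 of 10103 (28.8%, 27.9 to 29.7). In the shortest span class the shares were 16.5% and 9.50%, and in the longest 65.8% and 35.1%. The table holds genes that the authors kept, so a gene that is not listed may still be transcribed.

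The listing differed with how the peak was tied to the gene, and gene span differed too. Genes that were both assigned and overlapped were listed in 63.7% of 2977 cases (median span 4702 bp; 43.2% of all protein-coding genes of the same span classes). Genes assigned a peak beside their span were listed in 25.0% of 544 cases (1799.5 bp; 33.2%), near the 28.0% of 9629 genes with neither (1806 bp; 34.0%). Genes overlapped but not assigned lay between, at 44.3% of 474 (4154 bp; 42.5%). The part of span in these shares was not tested further. Listing also went up with the number of peaks over the span, from 27.8% with 0 peaks to 59.6% with 1, 67.6% with 2, 80.8% of 52 genes with 3 and 92.6% of 27 genes with 4 or more. The median span went up in step, from 1805 to 63149 bp, and its part in this rise was not tested.

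The level of RNA in listed genes differed with the scale. Per kb of gene span, the median was 20.7 CPM for genes with a peak and 22.1 CPM for the others. On this scale the difference of medians was -0.064, -0.056 and -0.099 (log2 of CPM per kb plus 1) in S1, S2 and S3. Without regard to length, the medians with a peak were 119, 119 and 123 CPM and those without were 60.4, 62.4 and 66.98 CPM in S1, S2 and S3. That difference was 0.92 ± 0.05 (log2 of CPM plus 1, SD, n = 3 pools), and within the 10 span classes it was 0.36. Spans include introns, so none of these scales is a transcript length. By read number, 66.4% of the highest class of 494 genes had a peak and 22.7% of the lowest class of 493, while the median span was 9458.5 bp in the former and 1100 bp in the latter.

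**Figure D5:**
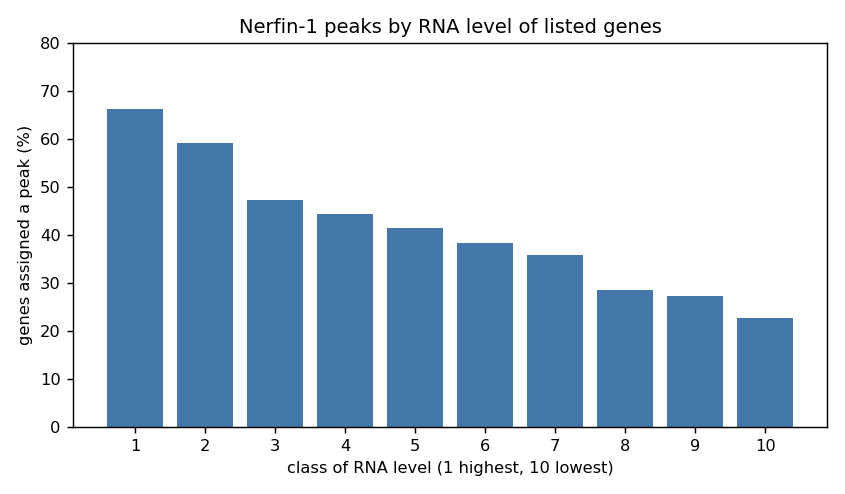
Percentage of listed protein-coding genes assigned a Nerfin-1 peak in 10 classes of mean CPM over the 3 libraries, from highest (1) to lowest (10). The bars go from 66.4% to 22.7%, and gene span falls along the same axis from a median of 9458.5 to 1100 bp.

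Among the genes with most reads, both kinds were found. In order of CPM without regard to length, those with a peak were pros, Act5C (cytoplasmic actin), fax, 14-3-3epsilon, brat, alphaTub84B (tubulin), Hsp83, heca, His3.3B (a histone variant) and eEF1alpha2. Those with none assigned were Hsp23, Df31, Hsp70Aa, Hsp70Bc, Cirl (latrophilin), CG10077, cib, CG13928, Rbp6 (a Musashi-family protein) and unc-13 (a synaptic vesicle priming factor). Act5C had a peak of 2212 bp and 8193, 8476 and 9295 CPM, and fax, a partner of Abl in axon growth, had 4433 bp and 4749, 4856 and 4658 CPM. Cirl had 2820, 2734 and 2699 CPM and no peak within 1 kb. Df31 and unc-13 were each overlapped by a peak that the list pairs with another gene. A peak of 1716 bp lay 92 bp from Hsp23, and the assigned peak of His3.3B did not touch its span. Hsp70Aa had 4845, 3029 and 1482 CPM, with S1 highest and S3 lowest.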

How the data were processed

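Per the labels, DamID DNA was cut with DpnI, ligated to adaptors, cut with DpnII, amplified and sequenced, so only methylated GATC fragments were read. The submitters' processing notes name the build dm6 with MACS2, Bowtie2, bedtools, Subread (featureCounts) and edgeR, without a role for each. The way in which the peaks were called from 2 replicates and the Dam-only control is not given in these sources. DamID depth is unknown. The deposited interval lists hold positions, not a signal. The deposited RNA table holds the authors' raw read counts for 5135 genes in 3 libraries (43555895, 44657928 and 57468071 counts over these genes; lowest count 99), and its columns could not be tied to replicate numbers.

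Of the 4527 rows, repeated peaks were collapsed to distinct intervals. Gene positions and types came from a RefSeq table of the same assembly. 4254 of 4353 identifiers matched a symbol. The 298 protein-coding genes with newer identifiers (lola, sbb, br and esg among them) could not be looked up by these identifiers, by assignment or in the RNA table. They were left out of those shares, although the files may hold them under identifiers that matched no symbol. Overlap meant at least 1 bp. The length standard is the mean, over the members' span classes, of the share of all protein-coding genes assigned a peak. It includes the members. The same standard among genes with listed RNA, and the separate totals for channels, nicotinic receptors, neuropeptides and the pathways other than Notch, were added after the values were seen. Counts were scaled to 1000000 per library (CPM) and log2-transformed after adding 1. TMM scaling used edgeR 4.0.16; the rest used Python 3.11.15, numpy 2.4.6, pandas 2.3.3 and scipy 1.17.1. Shares carry 95% Wilson intervals, which cover counting error only and treat neighbouring genes as independent. The steps were tested on simulated data. No group contrast exists within the list, so no test was made.

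The members, the gene lists and their groups were chosen with earlier results of these data known. The genes to be named were planned as nerfin-1 and sd, the 15 with most bound sequence, the 10 with most peaks and the 10 longest peaks. The plan also held the 10 highest-RNA genes with and without a peak, and members of each list in list order, up to 6 with and 6 without a peak. Some of these genes, and the members of some lists, are not named here. Further members with long or particular peaks were named after their values were seen. Promoters and sequence motifs were not analysed here.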

Additional observations from a re-analysis of the deposited data

How the results depend on the processing

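The list itself changed little with its handling: the median length was 1233.5 bp without peaks under 500 bp and 1214 bp with each row counted, against 1146 bp. How a peak is tied to a gene mattered more. With 5 kb added on either side of the span, 7409 protein-coding genes had a peak in place of 3521, and list members with a peak numbered 750 in place of 418. Genes with 2 or more peaks numbered 77 by assignment, 440 by overlap with the span, 774 with 1 kb added and 2593 with 5 kb added. Of the 15 protein-coding genes with most assigned sequence, 4 were shared with the ranking by bases inside the span and 1 with the ranking by covered share. Of 50 lists with any peak, the count stayed within 1.5 times in 43 by overlap, 39 with 1 kb added, 25 with 5 kb added and 30 with peaks of at least 1 kb. The share of genes listed in the RNA table, over all genes, was higher by 25.4 points with a peak. It was higher by 28.9 points over protein-coding genes, 20.4 within span classes and 27.5 by overlap with 1 kb added. The RNA level difference of 0.92 (log2) was 0.36 within span classes and 0.81 by overlap with 1 kb added. Per kb of span, an alternative chosen after seeing the data, it reversed to -0.073. Leaving out 1 library at a time gave 0.90 to 0.94. No paired analysis was possible because the results are descriptions of 1 pooled peak list and come from no test.

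The DamID list has no scores, depth or replicate values, weak and strong peaks count alike, and no call was repeated with a sample left out. Binding and RNA came from cells selected in different ways. Gene spans include introns and overlapping genes, and a peak over several genes counts for each.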

Other observations

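The windows with the most marked sequence are given here as values. In windows of 100 kb, chosen after their values were seen, the median over 1083 windows with a peak was 4072 bp of marked sequence. The most was 22421 bp in 6 peaks at 2R:13300001-13400000, a window with 6 protein-coding genes that holds mir-184 and the antimicrobial peptide gene AttC. Its peaks of 7712 and 7405 bp lay outside protein-coding genes. The next was 20553 bp at 3L:10800001-10900000, which holds the longest peak outside protein-coding genes, 8134 bp assigned to lncRNA:CR45246, and the gene tna. The window at 3R:26000001-26100000 held 12 peaks over 17598 bp and includes most of the E(spl) complex and gro, the corepressor that the E(spl) proteins recruit. The window at 2L:19100001-19200000 held 7 peaks over 18119 bp and includes brat, the LIM-homeodomain gene Lim3 and the Wnt5 receptor gene drl.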
